A study of Homo sapiens and Mus musculus with 24 samples.

Results

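Described here are 60 genes at the end of the long arm of human chromosome 22, from BIK to RABL2B, in RNA-seq of 4 Caco-2 cell lines. They were chosen from earlier results of these libraries by position and level. A gene was taken if it began at or beyond position 43110000 of chromosome 22 (GRCh38) and had a mean of at least 1 CPM (the count over the library total, times 1e6) over 15 libraries. Of 188 gene identifiers beyond that point, 60 met the minimum, of 58051 identifiers in all, and 13761 genes of the genome had that level. Of the other 128, 52 had no count in any library. The nearest gene outside the minimum was PANX2 at 0.957 CPM, and the member nearest inside it was CHKB-DT at 1.09 CPM. The 60 genes of the same minimum level that lie nearest before the point, the first starting at 39014083, served as reference.

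Caco-2 is a line of human colorectal carcinoma cells with features of enterocytes. The study deleted the DNA methyltransferase DNMT3A in these cells and put either of its isoforms back, to see which genes depend on which isoform. WT cells were unedited. ΔDNMT3A was a clone obtained by CRISPR-Cas9 editing, CD4-based enrichment and dilution. DNMT3A1 and DNMT3A2 were ΔDNMT3A cells carrying the long or the short isoform on a piggyBac transposon with a CMV promoter and puromycin selection, again expanded from clones, so that both share the deletion and each edited line is a single clone. All cells grew in MEM with serum and none was treated otherwise. Libraries of stranded total RNA were analysed from 4 WT, 4 ΔDNMT3A, 3 DNMT3A1 and 4 DNMT3A2 samples. Replicate 3 of DNMT3A1 was not analysed here. Nothing says that replicates were separate cultures, so p-values measure only the spread between these samples.

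Counts on genes ranged from 22104408 to 42161299 per library (median 30442451). DNMT3A itself stood at 64.6 ± 2.27 CPM in the 4 WT libraries (SD) and at 38 ± 1.23 in the 3 of DNMT3A1. It stood at 20.7 ± 1.22 in the 4 of ΔDNMT3A and at 21.9 ± 1.40 in the 4 labelled DNMT3A2. The libraries labelled DNMT3A2 overlapped those of ΔDNMT3A, with a log2 difference of 0.07 ± 0.057 (adjusted p = 0.27, edgeR), so their RNA counts showed no added DNMT3A over the knockout, which goes against the label. By contrast, the study reported both isoforms as re-expressed protein by immunoblot, and located both in nuclei by immunofluorescence. Those protein data were not analysed here. Every direction given for DNMT3A2 is that of libraries so labelled, and the words "labelled DNMT3A2" are kept throughout. EPCAM, an epithelial marker, was present in every line, at group means of 740 to 1168 CPM. The 7 listed epithelial markers were not all steady. Their log2 differences ran from -0.15 to 3.95 in ΔDNMT3A against WT and from -3.15 to 0.21 in DNMT3A1 against ΔDNMT3A. In the libraries labelled DNMT3A2 they ran from -4.43 to -0.12 against ΔDNMT3A and from -0.48 to 0.07 against WT. Of the 8 markers of leukocytes, endothelium and fibroblasts, the leukocyte marker PTPRC was at 0 in 3 of the 4 lines. PECAM1, at 3.19 to 8.75 CPM, and COL1A1, at 16.0 to 26.7 CPM, were present. Counts were high enough for a test in 1 of the 3 fibroblast markers, 0 of the 3 leukocyte markers and 2 of the 2 endothelial markers. The part of such cells in the results was not tested.

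Genes in such a stretch share a neighbourhood, not a pathway. BIK encodes a BH3-only protein that promotes apoptosis by binding BCL2 relatives, and its neighbours act in mitochondria, lipid metabolism, cell division, signalling and secretion. De novo methyltransferases such as DNMT3A place methyl groups on cytosines of CpG dinucleotides, and many promoters hold clusters of these, called CpG islands. No DNA measurement was analysed here.

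The sequence before the start site of members is shown because CpG is the substrate of the deleted enzyme. RefSeq promoters on GRCh38 were found for 45 of the 60 members. In the 250 bases upstream of the start, members held a median of 31 CpG (range 1 to 51), the reference genes with an entry (33 of 60) a median of 24, and all 27305 promoters a median of 11. Printed are 4 members picked after their values were seen. MCAT is the first member with an entry (chr22:43143398-43143647, minus strand, 23 CpG). FAM118A (chr22:45308710-45308959, plus strand) held the fewest, 1 CpG. KIAA0930 (chr22:45240895-45241144, minus strand), the last member before it with an entry, held 33. ADM2 (chr22:50481293-50481542, plus strand, 29 CpG) is a member of the far part. CG is in capitals, read 5′ to 3′ on the gene's strand.
MCAT: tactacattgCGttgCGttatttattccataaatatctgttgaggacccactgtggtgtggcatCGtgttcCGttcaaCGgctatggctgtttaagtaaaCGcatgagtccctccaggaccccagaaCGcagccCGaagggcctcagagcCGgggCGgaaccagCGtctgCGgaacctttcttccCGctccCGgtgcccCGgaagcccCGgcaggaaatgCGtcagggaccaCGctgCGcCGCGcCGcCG
FAM118A: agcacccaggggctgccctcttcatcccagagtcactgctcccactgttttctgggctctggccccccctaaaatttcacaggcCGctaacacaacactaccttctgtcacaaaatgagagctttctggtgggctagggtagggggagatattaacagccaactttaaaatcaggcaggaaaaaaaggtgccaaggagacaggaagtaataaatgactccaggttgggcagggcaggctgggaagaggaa
KIAA0930: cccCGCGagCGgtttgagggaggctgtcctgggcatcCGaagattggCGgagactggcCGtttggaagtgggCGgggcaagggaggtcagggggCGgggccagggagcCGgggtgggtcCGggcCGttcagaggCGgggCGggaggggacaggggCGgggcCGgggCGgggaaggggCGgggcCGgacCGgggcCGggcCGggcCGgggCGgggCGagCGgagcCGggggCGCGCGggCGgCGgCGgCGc
ADM2: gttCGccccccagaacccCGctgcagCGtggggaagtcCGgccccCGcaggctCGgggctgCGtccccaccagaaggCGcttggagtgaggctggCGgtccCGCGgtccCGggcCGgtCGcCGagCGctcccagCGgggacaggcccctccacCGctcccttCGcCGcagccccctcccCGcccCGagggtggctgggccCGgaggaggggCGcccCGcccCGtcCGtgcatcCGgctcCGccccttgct
At least 23 CpG stood in 25.4% of all promoters, at least 33 in 7.90%, at least 29 in 13.8% and at least 1 in 93.6%. No relation between CpG number and level was tested.

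The levels did not follow the label of the stretch to its end. Going along the chromosome, the first 30 members, from BIK to TBC1D22A (43110748 to 47175699), had a median below WT in each of the 3 edited lines. By fitted log2 difference from WT, 29 of them lay below 0 in ΔDNMT3A, 28 in DNMT3A1 and 30 in the libraries labelled DNMT3A2. The last 30, from EPIC1 to RABL2B (47631674 to 50801309), had medians nearer to those of the reference genes. The last 10 of them lay lower. Their medians were -0.39 in the libraries labelled DNMT3A2 and -0.09 in ΔDNMT3A against WT, where the reference genes had -0.04 and 0.29. The split after TBC1D22A was seen in the values, after which the members were divided in order into 2 groups of 30, so no test of it is given. Between TBC1D22A and EPIC1 lie 456 kb without a member, and between EPIC1 and BRD1 1918 kb.

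For each library, the level of every gene was divided by its mean in WT, with 0.1 CPM added to both, and the median over genes was taken on the log2 scale. Over the first 30 members it was -0.79 ± 0.047 in the 4 ΔDNMT3A libraries (SD), -0.66 ± 0.017 in the 3 of DNMT3A1 and -1.66 ± 0.026 in the 4 labelled DNMT3A2. The libraries read -0.82, -0.75, -0.74 and -0.83 in ΔDNMT3A, -0.65, -0.67 and -0.64 in DNMT3A1, and -1.67, -1.64, -1.68 and -1.63 in those labelled DNMT3A2. The 4 sets of libraries did not overlap, and as folds the edited lines stood at 0.580, 0.635 and 0.317 of WT. Over the last 30 members the medians were 0.21 ± 0.045, 0.20 ± 0.092 and -0.17 ± 0.019. Over the reference genes they were 0.30 ± 0.032, 0.28 ± 0.020 and -0.02 ± 0.024. So ΔDNMT3A and DNMT3A1 stood above WT in the reference genes and below WT from BIK to TBC1D22A.

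**Figure D1:**
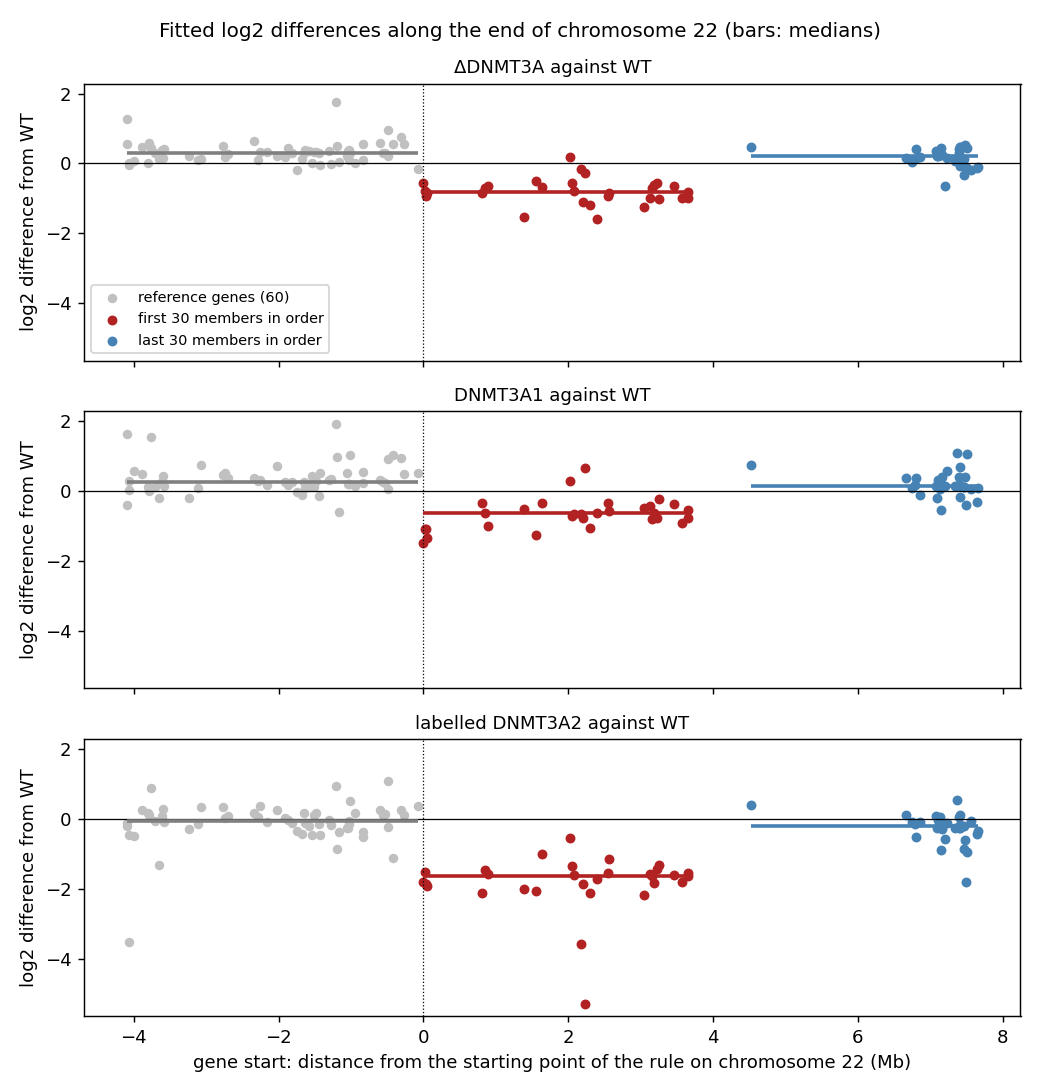
Each point is a gene, placed by the distance of its start from the starting point of the rule (Mb) and by its fitted log2 difference from WT, for ΔDNMT3A, DNMT3A1 and the libraries labelled DNMT3A2. The bars are medians: over the first 30 members they lie at -0.82, -0.64 and -1.63, and over the last 30 at 0.20, 0.14 and -0.19.

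**Figure D2:**
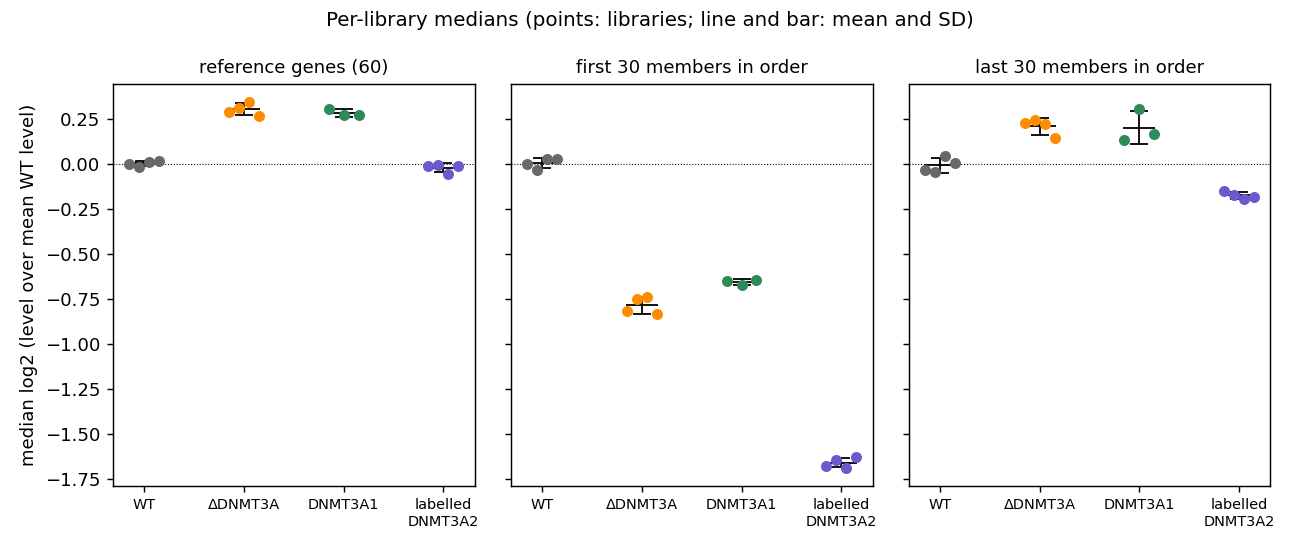
Points are libraries, with the mean and SD of each line, and the vertical axis is the median log2 level over the mean of WT. The lines separate in the middle panel (first 30 members), where the libraries labelled DNMT3A2 lie between -1.68 and -1.63.

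The shift began and ended within few genes. In runs of 10 members along the chromosome, the median log2 difference of the libraries labelled DNMT3A2 from WT was -1.84, -1.66 and -1.62 in the first 3 runs. It was -0.09, -0.25 and -0.39 in the next 3. For ΔDNMT3A against WT the 6 medians were -0.75, -0.82, -0.91, 0.22, 0.24 and -0.09. The reference gene nearest before BIK, TTLL1, a glutamylase of tubulin, stood at 2.12 ± 0.459 CPM in WT and at 2.70 ± 0.190 in the libraries labelled DNMT3A2. PACSIN2, an adaptor of endocytosis, stood at 131 ± 2.70 and 144 ± 2.00, and ARFGAP3, of the Golgi, at 31.8 ± 1.87 and 38.8 ± 1.69. CYB5R3, a reductase, was at 39.9 ± 1.23 and 34.4 ± 1.20, and A4GALT, a glycosyltransferase, at 1.19 ± 0.274 and 0.577 ± 0.263.

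As a share of all counts, the 60 members took 0.208 ± 0.0048% in WT and 0.116 ± 0.0014% in the libraries labelled DNMT3A2 (SD between libraries), with 0.164 ± 0.0034% for ΔDNMT3A and 0.179 ± 0.0042% for DNMT3A1 between them. The reference genes took 0.523% in WT, 0.538% in the libraries labelled DNMT3A2, 0.587% in ΔDNMT3A and 0.608% in DNMT3A1. In bulk RNA, fewer cells of a kind and less RNA per cell cannot be told apart.

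Gene by gene, each pair of lines was fitted with edgeR (quasi-likelihood test). P-values were adjusted over every gene tested by the Benjamini-Hochberg method, with 0.05 as threshold. All 60 members passed the filter on low counts in each fit. Members were picked with the values of the libraries labelled DNMT3A2 in view, so their comparisons are descriptions. Against ΔDNMT3A, 52 members were called lower in them and 1 higher, where 34.1% and 33.8% of all 16431 genes were called, and 46 did not overlap and were lower, against 30.5% of all genes. Against WT, 46 were called lower and 3 higher (background 34.4% and 34.3%), and 44 lay below without overlap (29.9%). Against DNMT3A1, 50 were called lower and 0 higher (34.5% and 33.9%), and 48 lay below without overlap (33.4%). Of the 60 reference genes, 49 were called lower and 6 higher against ΔDNMT3A, near the counts of members. Against DNMT3A1 they were also near, with 47 lower and 2 higher, but against WT 25 were lower and 23 higher. At the first 30 members the calls were 30 lower against ΔDNMT3A, 30 against WT and 29 against DNMT3A1. The median log2 differences of the first 30 were -0.81, -1.63 and -0.90, those of the last 30 -0.29, -0.19 and -0.36, those of the reference genes -0.41, -0.04 and -0.27, and those of all genes tested 0.00, 0.00 and 0.00.

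ΔDNMT3A differed from WT in both directions, by place. Of the 60 members 29 were lower and 20 higher, beside 31.0% and 31.2% of all 16654 genes tested. The lower ones numbered 28 of the first 30 and 1 of the last 30, DENND6B, which encodes a regulator of Rab GTPases. The higher ones were all among the last 30. As the members were divided after their values were seen, the counts by part are descriptions, here and for DNMT3A1 below. The 2 of the first 30 that missed the threshold, named after their values were seen, were UPK3A, a uroplakin of urothelium, with a log2 difference of -0.17 ± 0.15, and NUP50-DT, a transcript divergent from NUP50, with 0.19 ± 0.12. The median was -0.82 in the first 30 and 0.20 in the last 30, against 0.29 in the reference genes, of which 43 were higher and 1 lower.

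Between DNMT3A1 cells and ΔDNMT3A, from which they derive, members were called at near the share of all genes. Against ΔDNMT3A, 16 members were lower and 21 higher, beside 30.3% and 30.4% of all genes, and 23 missed the threshold. Of the 60 reference genes, 21 were lower and 21 higher. In the first 30 the counts were 8 lower and 14 higher, with a median of 0.14. Against WT, 32 members were lower and 17 higher, beside 32.7% and 32.6% of all genes. Of the first 30, 27 were lower, 1 was higher, SMC1B, and 2 missed the threshold, with a median of -0.64. Of the last 30, 5 were lower and 16 higher, with a median of 0.14, where the reference had 0.27. DNMT3A1 enters both of these comparisons, and ΔDNMT3A enters the first as well as its own comparison with WT. WT enters 3 of the 6, so the comparisons share libraries.

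**Figure D3:**
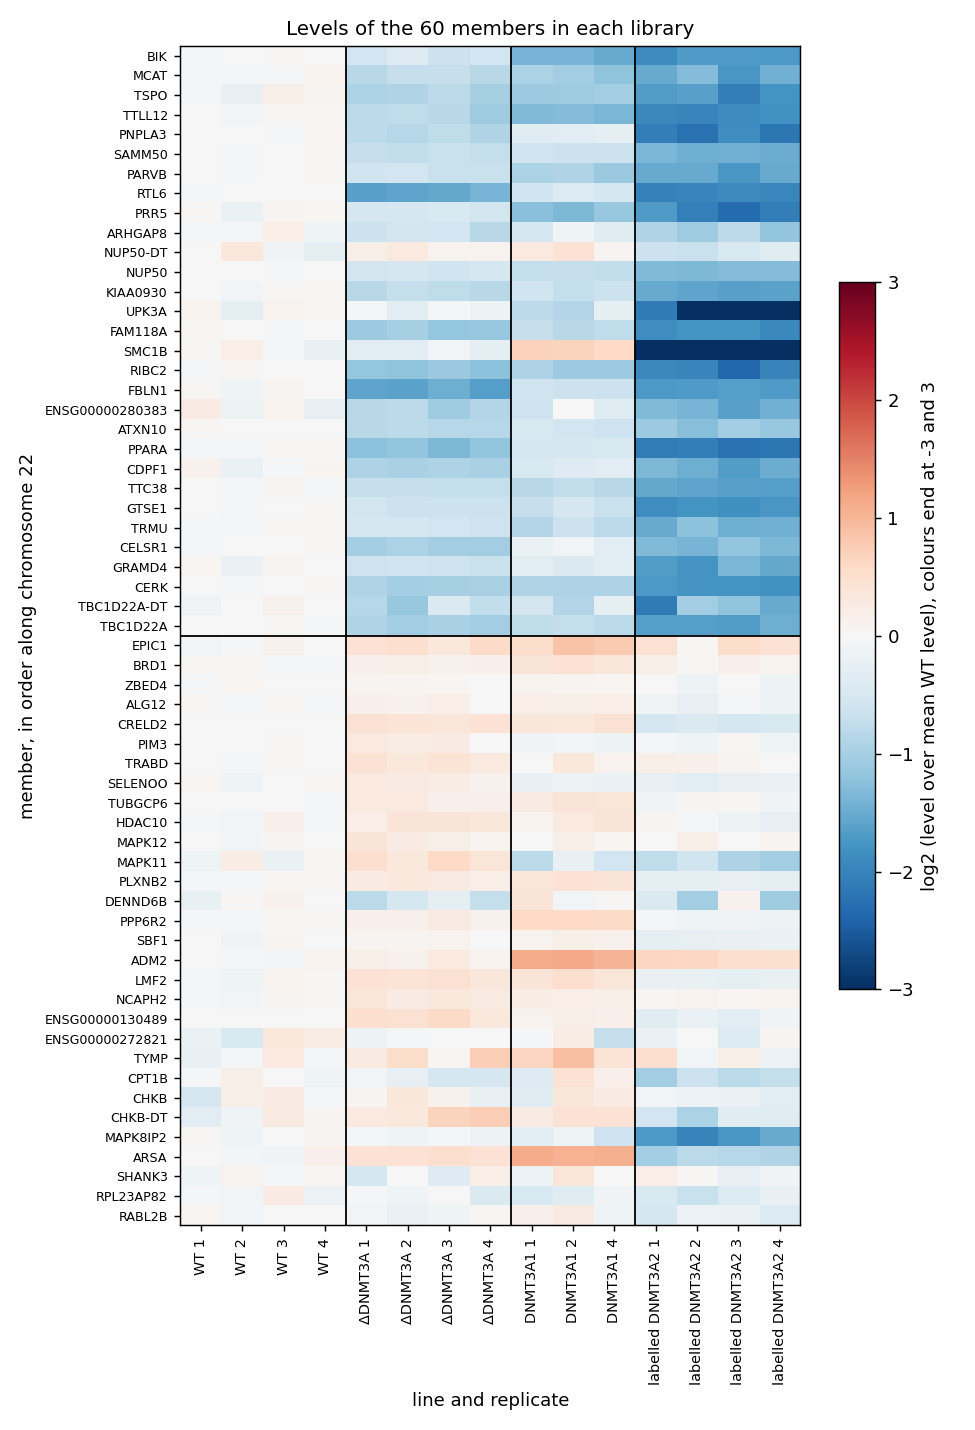
Rows are the 60 members in order along the chromosome and columns the 15 libraries. The colour is the log2 level over the mean of WT, from blue (lower) to red (higher), and black lines part the lines and the first 30 from the last 30 members. The upper part is mostly blue in the edited lines and darkest in the libraries labelled DNMT3A2. In the lower part, 23 of 30 members also had a fitted log2 difference from WT below 0 in the libraries labelled DNMT3A2, with a median of -0.19. In ΔDNMT3A 7 of these 30 lay below 0.

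BIK (ENSG00000100290, plus strand, 43110748 to 43129712) had 6.54, 6.63, 6.79 and 6.66 CPM in WT and 4.47, 5.06, 4.19 and 4.45 CPM in ΔDNMT3A. It had 2.46, 2.45 and 2.25 CPM in DNMT3A1 and 1.74, 1.98, 1.98 and 1.94 CPM in the libraries labelled DNMT3A2. No pair of lines overlapped, in the order WT, ΔDNMT3A, DNMT3A1 and labelled DNMT3A2. It fell from WT to ΔDNMT3A by 0.56 on the log2 scale (SE 0.082, adjusted p = 2.3e-06, edgeR), and from ΔDNMT3A to DNMT3A1 by 0.93 (SE 0.12, adjusted p = 1.3e-06, edgeR). The libraries labelled DNMT3A2 lay -1.25 ± 0.11 from ΔDNMT3A and -0.32 ± 0.15 from DNMT3A1 (log2 ± SE).

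Over the 15 libraries, the members whose log2 CPM followed BIK most closely were TTLL12, PARVB and PRR5, with Pearson's r of 0.970, 0.962 and 0.953. The points share the 4 lines and the library totals, so these values describe the order of the lines. TTLL12 (a member of the tubulin tyrosine ligase-like family) went from 74.1 ± 3.07 CPM in WT to 41 ± 3.69, 29.3 ± 0.541 and 19.8 ± 0.918. PARVB, which encodes an actin-binding parvin of focal adhesions, went from 31.4 ± 0.809 to 20.3 ± 0.637, 15.8 ± 1.29 and 10.6 ± 0.868. PRR5, which encodes a component of mTOR complex 2, went from 24.8 ± 2.03 to 17.4 ± 0.523, 10.4 ± 0.730 and 6.02 ± 1.08, and 17.8% of its exonic bases are shared with the read-through gene PRR5-ARHGAP8, so that its count is uncertain. In these genes, as in BIK, DNMT3A1 cells lay below ΔDNMT3A.

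Among genes of apoptosis and mitochondria, 7 of 8 listed were members and 1 could not be matched. Beside BIK, the outer membrane protein TSPO was at 7.20, 6.38, 8.54 and 8.0 CPM in WT, 3.87, 4.00, 4.32 and 3.75 in ΔDNMT3A, 3.51, 3.52 and 3.58 in DNMT3A1, and 2.29, 2.35, 1.70 and 2.11 in the libraries labelled DNMT3A2. SAMM50, part of the machinery that inserts proteins into the outer membrane, was at 69.8 ± 1.66, 42.7 ± 0.933, 45 ± 0.792 and 25.7 ± 0.965 CPM in the same order. The groups stepped down with ΔDNMT3A and DNMT3A1 near each other: for SAMM50 the DNMT3A1 to ΔDNMT3A difference was 0.07 ± 0.044 (adjusted p = 0.15, edgeR). TRMU, a modifier of mitochondrial tRNA, was at 43.3 ± 1.68, 29.5 ± 0.947, 25.3 ± 2.04 and 16.2 ± 1.44. MCAT, which is outside that list and encodes an acyltransferase of mitochondrial fatty acid synthesis, was at 19.2 ± 0.926, 11.3 ± 0.658, 9.16 ± 0.827 and 6.76 ± 0.880. SELENOO, a mitochondrial selenoprotein of the far part, was at 23.5 ± 1.30, 27.6 ± 1.43, 20.6 ± 0.604 and 19.8 ± 0.628. Of the 7, 4 were lower and 2 higher in ΔDNMT3A than in WT, where 31.0% and 31.2% of all genes tested were called.

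Lipid genes were 7 of 8 listed, and PNPLA5 was below the minimum. In ΔDNMT3A 3 were lower than in WT, 2 higher and 2 missed the threshold (31.0% and 31.2% of all genes). PPARA, the nuclear receptor that drives fatty acid oxidation, was at 24.2, 23.9, 25.1 and 25.3 CPM in WT, 10.4, 10.9, 9.59 and 10.9 in ΔDNMT3A, 17.4, 17.5 and 17.7 in DNMT3A1, and 5.73, 5.76, 5.13 and 5.38 in the libraries labelled DNMT3A2. No pair of lines overlapped, and here DNMT3A1 lay above ΔDNMT3A, by 0.75 ± 0.060 (adjusted p = 1.7e-09, edgeR). PNPLA3, a lipase of lipid droplets, showed the same order, at 18.4 ± 0.533, 10.3 ± 0.452, 14.6 ± 0.337 and 4.26 ± 0.507, with exon bases shared with SAMM50. CERK, ceramide kinase, was at 99.4 ± 1.63, 50.6 ± 1.65, 52.5 ± 0.818 and 28.9 ± 0.888, with no call between ΔDNMT3A and DNMT3A1 (0.05 ± 0.043, adjusted p = 0.31, edgeR). In the far part ARSA, the lysosomal arylsulfatase A, was at 4.87 ± 0.429, 6.69 ± 0.180, 10.3 ± 0.346 and 2.58 ± 0.153. So ARSA was lowest in the libraries labelled DNMT3A2 without the drop in ΔDNMT3A, where it rose by 0.44 ± 0.082 (adjusted p = 6e-05, edgeR). LMF2, a factor for lipase maturation, rose to 57.1 ± 1.77 from 42.9 ± 2.92 in ΔDNMT3A and lay at 36.3 ± 1.04 in the libraries labelled DNMT3A2. CPT1B and CHKB, at group means between 0.820 and 1.63 CPM, share most of their exonic bases (66.4% and 72.5%) with the read-through gene CHKB-CPT1B, and their counts are uncertain.

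**Figure D4:**
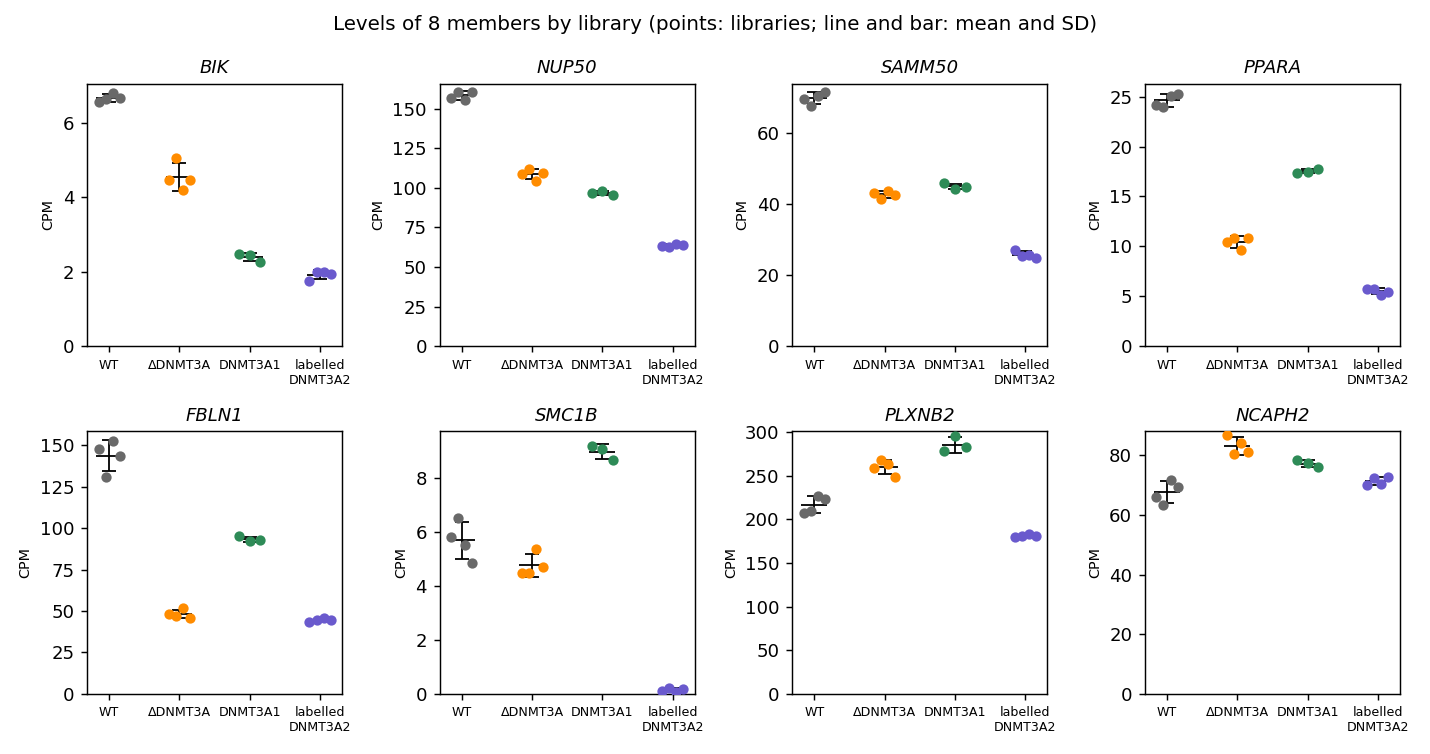
Points are the libraries and lines with bars the mean and SD of CPM for 8 members, by line. BIK, NUP50, SAMM50, PPARA and FBLN1 are highest in WT, SMC1B is nearly absent in the libraries labelled DNMT3A2 (0.145 CPM), and PLXNB2 and NCAPH2, from the far part, are higher in ΔDNMT3A than in WT.

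All 5 listed genes of cell division and the nucleus were members, 3 of them lower and 2 higher in ΔDNMT3A than in WT (31.0% and 31.2% of all genes). SMC1B encodes a cohesin subunit of meiosis. It was at 5.82, 6.52, 5.52 and 4.86 CPM in WT, at 4.49, 4.47, 5.37 and 4.68 in ΔDNMT3A, and at 9.19, 9.07 and 8.64 in DNMT3A1. In the libraries labelled DNMT3A2 it was at 0.118, 0.231, 0.0708 and 0.162 CPM, which is at most 5 counts in a library. That is the farthest of the members, -5.03 ± 0.21 from ΔDNMT3A, and no library of the others came near. It rose from ΔDNMT3A to DNMT3A1 by 0.92 ± 0.087 (adjusted p = 1.7e-08, edgeR). RIBC2, picked after its values were seen, starts next to SMC1B and was at 7.96 ± 0.146, 3.48 ± 0.140, 3.86 ± 0.271 and 1.84 ± 0.238.

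NUP50, a nucleoporin with the highest mean level of the first 30 members, was at 157, 161, 156 and 161 CPM in WT, 109, 112, 104 and 110 in ΔDNMT3A, 96.7, 97.8 and 95.4 in DNMT3A1, and 63.0, 62.5, 64.4 and 63.9 in the libraries labelled DNMT3A2. GTSE1, a regulator of the mitotic spindle, was at 34.7 ± 0.771, 22.6 ± 0.809, 22.5 ± 1.67 and 9.86 ± 0.337. In the far part NCAPH2, a subunit of condensin II, was at 67.6 ± 3.65, 83.2 ± 2.94, 77.3 ± 1.13 and 71.4 ± 1.48, and TUBGCP6, of the gamma-tubulin complex, at 41.6 ± 0.720, 48.6 ± 2.52, 52.5 ± 2.75 and 41.1 ± 2.93. The latter pair rose in ΔDNMT3A, by 0.29 ± 0.037 (adjusted p = 3.2e-07, edgeR) and 0.22 ± 0.039.

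Of 7 listed receptors and ligands 4 were members, and WNT7B, SCUBE1 and PANX2 were below the minimum. In ΔDNMT3A 2 of the 4 were lower than in WT and 1 higher (31.0% and 31.2% of all genes). FBLN1, a secreted glycoprotein of the matrix, was at 147, 131, 153 and 144 CPM in WT, 48.2, 47.2, 51.6 and 45.7 in ΔDNMT3A, 95.0, 92.1 and 92.7 in DNMT3A1, and 43.6, 44.5, 45.6 and 44.4 in the libraries labelled DNMT3A2. It fell by 1.59 ± 0.041 in ΔDNMT3A (adjusted p = 4e-20, edgeR), the lowest of the members, rose by 0.95 ± 0.042 in DNMT3A1, and lay at -0.12 ± 0.037 in the libraries labelled DNMT3A2 against ΔDNMT3A. CELSR1, a cadherin of planar polarity, had the same form at 50.1 ± 1.46, 24.7 ± 0.855, 43.5 ± 3.94 and 20.1 ± 1.37. UPK3A was at 1.71 ± 0.225, 1.54 ± 0.150, 1.08 ± 0.286 and 0.144 ± 0.115, with at most 8 counts in a library labelled DNMT3A2. In the far part ΔDNMT3A and DNMT3A1 lay above WT in every library of 1 receptor gene, PLXNB2. This receptor of semaphorins, the member with the highest CPM, was at 207, 210, 227 and 223 CPM in WT, 258, 268, 263 and 249 in ΔDNMT3A, 278, 295 and 283 in DNMT3A1, and 180, 181, 183 and 180 in the libraries labelled DNMT3A2. RTL6, a gene derived from a retrotransposon, was at 34.8 ± 0.421, 12.0 ± 0.893, 24.4 ± 1.68 and 8.79 ± 0.326, the second lowest in ΔDNMT3A at -1.55 ± 0.053 and the highest rise in DNMT3A1 at 1.03 ± 0.063.

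Signalling genes were 9 of 9 listed. Of these, 3 were lower in ΔDNMT3A than in WT, 4 higher, and 2 missed the threshold, beside 31.0% and 31.2% of all genes. Beside PRR5, GRAMD4, a mitochondrial protein that promotes cell death, was at 15.6 ± 1.38, 10.05 ± 0.210, 12.1 ± 0.499 and 5.14 ± 0.642. TBC1D22A, of a family of Rab GTPase-activating proteins and the last gene of the shifted run, was at 26.8 ± 0.611, 13.4 ± 0.657, 15.7 ± 0.555 and 8.70 ± 0.572. The signalling genes of the far part did not share 1 order of the group means. MAPK11, a p38 kinase, was at 2.66, 3.41, 2.52 and 3.03 CPM in WT, 4.13, 3.64, 4.43 and 3.75 in ΔDNMT3A, 1.61, 2.49 and 1.91 in DNMT3A1, and 1.66, 1.89, 1.49 and 1.36 in the libraries labelled DNMT3A2. It fell from ΔDNMT3A to DNMT3A1 by 1.01 ± 0.15 (adjusted p = 5.6e-06, edgeR). MAPK8IP2, a scaffold of JNK signalling, was at 5.09 ± 0.306, 4.77 ± 0.214, 3.97 ± 0.702 and 1.46 ± 0.211, and in ΔDNMT3A it missed the threshold at -0.11 ± 0.084. MAPK12, another p38 kinase, was at 28.1 ± 1.36, 33.2 ± 2.85, 29.7 ± 1.85 and 29.7 ± 1.69, and shares 29.3% of its exonic bases with HDAC10. SBF1, a pseudophosphatase, was at 142 ± 8.21, 149 ± 3.83, 157 ± 4.01 and 121 ± 2.25, and PPP6R2, a phosphatase subunit, at 51.8 ± 1.65, 58.5 ± 2.70, 77.9 ± 0.889 and 48.2 ± 1.63. PIM3, a survival kinase, was at 38.7 ± 0.816, 44.2 ± 3.73, 35.7 ± 0.686 and 36.8 ± 1.97.

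Of 4 chromatin genes 3 were members, all in the far part, and PHF21B was below the minimum. In ΔDNMT3A 2 of the 3 were higher than in WT and none lower, beside 31.2% and 31.0% of all genes, which also stand beside the secretory and cytoskeletal counts that follow. BRD1, a scaffold of histone acetyltransferases, was at 45.3 ± 1.36, 50.4 ± 0.798, 59.2 ± 2.09 and 49.3 ± 1.96. ZBED4, a zinc finger protein, was at 38.6 ± 1.19, 40.3 ± 0.752, 41.1 ± 0.709 and 36.7 ± 2.05, and HDAC10, a deacetylase of polyamines, at 3.60 ± 0.286, 4.55 ± 0.280, 4.35 ± 0.405 and 3.40 ± 0.335. HDAC10 shares 55.8% of its exonic bases with MAPK12. In the libraries labelled DNMT3A2 the 3 differed from ΔDNMT3A by -0.04 ± 0.034, -0.14 ± 0.041 and -0.43 ± 0.10 (log2 ± SE). All 4 secretory genes were members of the far part and rose in ΔDNMT3A over WT. CRELD2, a protein induced by stress of the endoplasmic reticulum, went from 21.9 ± 0.209 to 29.2 ± 0.674 and stood at 28.4 ± 1.65 and 15.6 ± 0.523. ALG12, a mannosyltransferase, was at 38 ± 1.18, 41.5 ± 2.53, 43.4 ± 0.448 and 34.5 ± 2.04. TRABD was at 27.4 ± 0.632, 35.4 ± 1.55, 30.4 ± 3.30 and 29.5 ± 1.70. Of 6 cytoskeletal genes 4 were members, and PARVG and EFCAB6 were below the minimum. In ΔDNMT3A 3 of the 4 were lower than in WT and none higher. RABL2B, a small GTPase with the near copy RABL2A on another chromosome, was at 5.30 ± 0.192, 4.97 ± 0.339, 5.70 ± 0.789 and 4.25 ± 0.503, an uncertain value.

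Among the last 30 members some went their own way. ADM2, a peptide hormone of the calcitonin family, was at 12.7, 12.2, 11.8 and 13.5 CPM in WT, 14.2, 13.7, 15.4 and 13.5 in ΔDNMT3A, 27.2, 27.9 and 25.6 in DNMT3A1, and 19.6, 19.4, 17.8 and 17.6 in the libraries labelled DNMT3A2. It rose in DNMT3A1 over ΔDNMT3A by 0.92 ± 0.055 (adjusted p = 1.8e-11, edgeR), and the libraries labelled DNMT3A2 lay 0.38 ± 0.060 above ΔDNMT3A, as the one member called higher there. EPIC1, a long noncoding RNA and the first member after the shifted run, was at 2.37 ± 0.153, 3.29 ± 0.244, 3.98 ± 0.477 and 3.11 ± 0.460, and rose in ΔDNMT3A by 0.46 ± 0.11 (adjusted p = 0.00074, edgeR). SHANK3, a scaffold of synapses, was at 3.06 ± 0.237, 2.75 ± 0.653, 3.22 ± 0.645 and 3.01 ± 0.404, with overlap between all lines. Some of the last 30 were near the minimum level. DENND6B was at 1.54 ± 0.161, 1.00 ± 0.184, 1.69 ± 0.306 and 1.04 ± 0.479. CHKB-DT, a divergent transcript of CHKB, was at 0.987 ± 0.188, 1.46 ± 0.253, 1.31 ± 0.114 and 0.645 ± 0.134. ENSG00000130489, which overlaps TYMP in 24.9% of its exonic bases, was at 14.4 ± 0.169, 19.8 ± 1.43, 15.8 ± 0.365 and 12.1 ± 1.02, a rise of 0.45 ± 0.058 in ΔDNMT3A over WT (adjusted p = 2.8e-07, edgeR). RPL23AP82, a pseudogene whose reads may come from its parent, was at 4.42 ± 0.589, 4.02 ± 0.535, 3.55 ± 0.481 and 3.25 ± 0.438.

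Per kilobase of exon, the median level was 3.04 CPM in the first 30 members and 3.64 in the last 30. The highest level, 32.0 CPM per kilobase, was that of PLXNB2 in the last 30, and the highest of the first 30 was that of NUP50 at 13.0.

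Lists of genes elsewhere in the genome that are related to members were counted in the same fits. Over all genes tested, 34.1% were lower and 33.8% higher in the libraries labelled DNMT3A2 against ΔDNMT3A, and 34.4% and 34.3% against WT. The single genes named from these lists were picked after their values were seen and do not stand for their list. Of 15 relatives of BIK in the BCL2 family 14 were tested, with 3 lower and 5 higher in the libraries labelled DNMT3A2 against ΔDNMT3A (median log2 difference -0.03) and 4 lower and 6 higher against WT (0.04). BMF, a BH3-only protein like BIK, was at 61.7 ± 2.38, 28.7 ± 2.05, 50.4 ± 0.467 and 81.9 ± 4.09 CPM. Of 29 paralogues of members 27 were tested, with 13 lower and 10 higher against ΔDNMT3A (-0.04) and 17 lower and 6 higher against WT (-0.20). PPARG, a relative of PPARA on chromosome 3, was at 20.5 ± 0.0978, 22.2 ± 1.56, 15.5 ± 1.27 and 6.56 ± 0.180. Of 20 PPARA target genes 16 were tested, with 14 lower and 1 higher against ΔDNMT3A (-0.49) and 11 lower and 4 higher against WT (-0.11). CPT1A, the rate-limiting enzyme of mitochondrial fatty acid import, was at 5.67 ± 0.603, 5.59 ± 0.181, 12.5 ± 0.725 and 3.83 ± 0.242. The medians over all genes tested were 0.00 in both comparisons.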

How the data were processed

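The authors sequenced stranded TruSeq libraries of total RNA from Caco-2 cells as paired reads. Per the labels and the study's methods, they trimmed with Trim Galore 0.4.4, aligned with STAR 2.5.2b to GRCh38 and counted with featureCounts 1.5.2. The deposited values are raw counts per gene, without normalization, and the file headers state reverse-strand counting of pairs. Mouse libraries were not used here.

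Groups were taken from the labels. Human identifiers were matched to symbols (56948 of 58051, 98.1%). Members, lists and the reference were chosen with earlier results of these data known. Each pair of lines was fitted alone with edgeR 4.0.16 in R 4.3.3: filterByExpr, TMM, quasi-likelihood F test, Benjamini-Hochberg adjustment over all genes tested, threshold 0.05. Levels are CPM on TMM library sizes. Standard errors are the log2 difference over the square root of F. The comparisons made were all 6 pairs of lines. The fits were tested on simulated counts. Named genes were BIK, the 10 members highest in mean CPM, the 5 first and 5 last along the chromosome, the 3 highest and 3 lowest differences in the libraries labelled DNMT3A2 against ΔDNMT3A, the 3 highest and 3 lowest calls in each comparison without those libraries, the 5 nearest reference genes and the role lists. Any other gene is marked in the text as picked after its values were seen, apart from the cell markers.

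Library totals of 22104408 to 42161299 set the precision. Reads had no molecular identifiers, so floors (3 counts) cover counting error only. Chi-square over degrees of freedom between replicates was 1.83 to 5.10, so none was a duplicate. Alternatives were RLE size factors, library totals, DESeq2 1.42.0, no filter, all 15 libraries in 1 fit, a replicate block, leaving out each library, each pair of replicates (1 and 2, 3 and 4) that shared a sequencing lane in the file names, other minimum levels (0.2 and 5 CPM) and all 277 earlier chromosome 22 genes as reference. Python 3.11.15 with numpy 2.4.6 served for tables (pandas 2.3.3), tests (scipy 1.17.1) and figures (matplotlib 3.10.9).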

Additional observations from a re-analysis of the deposited data

Results flagged for a closer look

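In 9 of 129 groups of 4 libraries examined, the highest or lowest library stood far from the other 3 by Dixon's test, which flags about 1 in 20 groups by chance. BIK was low in 1 library labelled DNMT3A2, at 1.74 CPM with the nearest other at 1.94. UPK3A was high in 1 of them, at 0.316 CPM beside 0.0972, and the median of the reference genes over WT was low in 1, at -0.0552 beside -0.0108 on the log2 scale. In ΔDNMT3A, SBF1 was low in 1 library at 143 CPM beside 150, PPP6R2 high at 62.6 beside 57.4, ARSA high at 6.96 beside 6.61, and the reference gene A4GALT low at 1.52 beside 1.83. In WT, MCAT was high in 1 library at 20.5 CPM beside 18.8, and PRR5 low at 21.7 beside 25.6.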

How the results depend on the processing

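Over the medians and counts of members in 6 comparisons, 1 alternative turned a sign: without replicate 4 of ΔDNMT3A, the median of the last 30 in DNMT3A1 against ΔDNMT3A was -0.0011 instead of 0.02. Of 632 values, 597 stayed within 1 SD between replicates or 1.5 times the count. With a minimum of 5 CPM, the median of the libraries labelled DNMT3A2 against WT was -1.24 with 30 members lower, and that of ΔDNMT3A against WT -0.54. With a minimum of 0.2 CPM, the latter was -0.34, and 3 members were higher in the libraries labelled DNMT3A2 against ΔDNMT3A and 5 against WT. With library totals, the first 30 had -1.69 (labelled DNMT3A2 against WT), -0.94 (against DNMT3A1) and -0.67 (DNMT3A1 against WT), and the last 30 -0.25 (labelled DNMT3A2 against WT). In replicates 3 and 4 alone, the first 30 had -1.68, -0.96 and -0.68 in the same order and the last 30 -0.27, while 11 members were higher in ΔDNMT3A against WT. The -0.96 and -0.68 rest on 1 DNMT3A1 library, since replicate 3 of DNMT3A1 was not analysed. In replicates 1 and 2 alone, the last 30 had -0.13 (labelled DNMT3A2 against WT), and ΔDNMT3A against WT had -0.75 in the first 30 and 0.28 in the last 30. The cause was not tested. Leaving out 1 library at a time gave -0.24 to -0.13 for the last 30 of the libraries labelled DNMT3A2 against WT, and -0.69 to -0.62 for the first 30 of DNMT3A1 against WT. Same-numbered libraries deviated from their group means with correlations of -0.12 to 0.094, and libraries of unlike number with -0.15 to 0.11. Libraries labelled DNMT3A2 correlated best with their own number in 3 of 3 cases against DNMT3A1 and in 0 of 4 against WT. Whether the numbers pair samples was thus not settled. With a replicate block, 52 members were lower against ΔDNMT3A and 46 against WT in the libraries labelled DNMT3A2, and the block moved no count by over 1.5 times. DNMT3A1 had 3 libraries and genes near 1 CPM rest on few counts, which limits both.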
